A study of Mus musculus with 15 samples.

Results

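A set of 10 genes of the neuronal cytoskeleton and growth cone were followed: Ina, Nefl, Nefm, Gap43, Basp1, Rtn1, Crmp1, Dpysl2, Dpysl3 and Dpysl5. They were taken by symbol from a table of 55367 genes, and 10 of 10 symbols were found. The samples came from the medial cortex of C57BL/6 mouse embryos at E11.5. The AnnexinV-positive libraries held cells that bound annexin V, a protein that binds phosphatidylserine on the outer membrane face, but excluded propidium iodide (PI), which enters cells with a broken membrane. The libraries they were set against held cells that took up neither stain and are called double-negative. Each sort gave 6 bulk libraries made with a modified smart-seq2 method, and no genotype or treatment other than the sort is given in the labels. The series holds 3 further samples without a sort label, which are not analysed here.

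Neuronal intermediate filaments are built from the light, medium and heavy neurofilament chains and internexin, and internexin appears early in developing neurons. A growth cone is the motile tip of a growing axon. GAP43 and BASP1 are acidic proteins of its inner membrane face and are substrates of protein kinase C. The collapsin response mediator proteins (CRMPs) bind tubulin and actin and pass semaphorin signals to the cytoskeleton. They are encoded by Crmp1 and the Dpysl genes. Reticulon 1, encoded by Rtn1, is a membrane protein of the neuronal endoplasmic reticulum.

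Total counts were 190694 to 444412 in AnnexinV-positive libraries and 88193 to 329813 in double-negative libraries. Haemoglobin genes took at most 0.00964% of the counts of an AnnexinV-positive library, and up to 30.8% in double-negative libraries 1 to 3. Of 12 progenitor markers, among them Emx1, Emx2 and Lhx2, 0 were at 0 in either group. A marker was at 0 only if every library of the group lacked it. The list also holds genes of neural progenitors in general, such as Vim and Nes. Of 8 ventral forebrain markers, 2 were at 0 over the AnnexinV-positive libraries and 1 over the double-negative ones. Detection alone therefore cannot decide which forebrain region was sampled, and the tissue label was not tested. Values are given as CPM, counts scaled to a common library size, here after TMM scaling, a between-library correction. That size counts only the genes that passed the filter on low counts, so haemoglobin genes are outside it. Double-negative library 2, for example, had 321494 counts in all and an effective total of 183750 after filter and scaling. A CPM is therefore not a share of all counts. Of the 10 genes, 8 passed the filter on low counts and were tested with edgeR's quasi-likelihood test among 3800 genes. In bulk RNA, fewer cells of a type and less RNA per cell cannot be told apart. Nothing in the labels ties a library to its own embryo or sort. The p-values therefore measure only how these libraries spread, and that spread may be technical.

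A total of 4 genes fell in AnnexinV-positive cells: Ina, Rtn1, Crmp1 and Dpysl3. That is 4 of the 8 tested, where 1.47% of the 3800 tested genes were called lower at an adjusted p of 0.05. At an unadjusted p under 0.05, 7 of the 8 were lower, against 7.68% of tested genes. The sign was negative for 8 of 8, against 46.7% of tested genes, and the median log2 fold change was −2.0, against 0.06 over all tested genes. The choice of genes was made with results of these data known, so these counts describe the 8 and do not support a statement about a wider class. Ina and Rtn1 also entered the test mainly through the group in which they were high. They were over the filter's cut in 5 and 6 double-negative libraries, against 1 and 2 AnnexinV-positive ones. Over all tested genes 15 were called higher and 56 lower, which became 42 and 55 with upper-quartile scaling and 52 and 32 with library totals alone, where the median of all genes shifted by 0.22. The 4 genes passed as lower under each of these scalings.

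The promoter windows of 3 of the genes that fell are shown here, because they are annotated start regions of genes whose levels differed. Each runs from 250 bases before to 50 bases after a RefSeq start site on GRCm38.p6. Where a gene has several windows, the one that holds the start of the transcript that GENCODE numbers first was taken. Capitals mark matches, on either strand, to any of 6 motifs: the TATA box TATAAA, the E-box CAGCTG, a second E-box CAGATG, the MYT1-type motif AAGTTT, the half-site TGACG of the cyclic AMP response element, and the EBF half-site palindrome.
Ina, chr19:47014431-47014730, plus strand: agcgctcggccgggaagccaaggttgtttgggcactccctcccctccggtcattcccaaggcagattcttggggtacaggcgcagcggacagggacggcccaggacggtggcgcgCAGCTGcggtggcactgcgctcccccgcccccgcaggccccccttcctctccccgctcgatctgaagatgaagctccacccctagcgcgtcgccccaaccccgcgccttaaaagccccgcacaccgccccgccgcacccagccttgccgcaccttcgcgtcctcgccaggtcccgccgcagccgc
Rtn1, chr12:72236678-72236977, minus strand: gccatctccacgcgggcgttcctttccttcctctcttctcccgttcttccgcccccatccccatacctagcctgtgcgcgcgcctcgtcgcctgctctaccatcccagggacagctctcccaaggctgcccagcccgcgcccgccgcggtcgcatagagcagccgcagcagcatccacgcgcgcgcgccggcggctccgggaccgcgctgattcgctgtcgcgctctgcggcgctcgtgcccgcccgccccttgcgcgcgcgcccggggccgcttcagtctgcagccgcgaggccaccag
Crmp1, chr5:37245514-37245813, plus strand: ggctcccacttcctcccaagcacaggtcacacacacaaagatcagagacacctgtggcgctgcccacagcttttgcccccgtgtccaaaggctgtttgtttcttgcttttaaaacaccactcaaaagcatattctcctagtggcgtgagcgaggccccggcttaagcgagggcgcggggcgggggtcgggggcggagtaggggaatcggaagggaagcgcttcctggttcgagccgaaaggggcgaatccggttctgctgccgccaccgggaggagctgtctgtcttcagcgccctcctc

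The match in the Ina window is the E-box CAGCTG, at −135 bases from the start site (negative values lie before it), and 16.3% of 32851 promoter windows of the same length hold that motif. The Rtn1 and Crmp1 windows shown hold 0 matches to the 6 motifs. The shares of G and C are 71.7% for Ina, 73.3% for Rtn1 and 61.0% for Crmp1 in the windows shown, where the median window has 52.7%. The 2 other Rtn1 windows have 45.3% and 46.3%, below that median, so the Rtn1 value belongs to the window chosen. RefSeq windows were matched for 5 of the genes: Ina, Rtn1, Crmp1, Basp1 and Dpysl5. Gap43, Nefl, Nefm and Dpysl2 had no entry, and Dpysl3 was not looked up here. The windows not shown hold matches too. Of the 2 further Rtn1 windows, 1 has CAGATG at −200 and AAGTTT at −134, motifs found in 17.2% and 14.4% of all windows. TGACG, found in 20.8% of all windows, lies at −156 in the other Crmp1 window and at −238 in that of Basp1. The window of Dpysl5 holds a match to the EBF half-site palindrome at −53, a motif present in 0.904% of all windows. A match describes letters and is not a binding site.

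Internexin, encoded by Ina, had the largest fitted difference of the 8 tested genes. The gene lies on chromosome 19 at 47014698 to 47025327 (plus strand, GRCm38). AnnexinV-positive libraries had 0 CPM at the lowest, 5.37 at the median and 37.8 at the highest, against 32.7, 186 and 234 CPM in double-negative libraries. In AnnexinV-positive cells 3 of 6 libraries had no Ina count, and 1 (library 4) lay above the lowest double-negative library (library 2), so the groups overlapped there. Ina averaged 10.2 ± 14.7 CPM among AnnexinV-positive libraries, against 159 ± 80.5 CPM among double-negative ones (SD, n = 6 each). Its log2 fold change was −3.87 (SE 0.79, 95% interval −5.49 to −2.25, adjusted p = 0.00896 in edgeR). Without AnnexinV-positive library 4 it was −4.87, and over all its alternatives the adjusted p ran from 2.27e-05 to 0.145. Only 1 AnnexinV-positive library was over the filter's cut of 32.8 CPM before scaling, against 5 double-negative libraries, so Ina entered the test mainly through the group in which it was high. The start of Ina overlaps the start of Nt5c2 on the other strand (66 counts over the AnnexinV-positive libraries and 47 over the double-negative ones). Such summed counts, here and for other genes below, are not scaled for depth, and the groups total 2019930 counts for AnnexinV-positive and 1398692 for double-negative libraries. Without a stated strand setting, reads in the overlap cannot be assigned to either gene.

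The neurofilament genes Nefl (light chain) and Nefm (medium chain) stayed below the filter. Nefm had 0 counts in the 6 AnnexinV-positive libraries and 15 counts in double-negative libraries, spread over 4 of 6 of them, with 8 of the 15 in library 1. Pooled over libraries, it was at least 7.22-fold lower in AnnexinV-positive cells, where a limit of 3 counts over the whole group allows 1.49 CPM before scaling, than in double-negative cells, taking their pooled level of 10.7 as it stands. Without double-negative library 1 that bound was 4.31-fold. An exact two-sided permutation test on log2 CPM over libraries gave p = 0.0606 for Nefm. Nefl also had 0 counts in AnnexinV-positive libraries, and 11 of its 12 double-negative counts came from library 6. The same exact test gave p = 0.455 for Nefl, and 1 count is left without that library. At this depth a difference of Nefl was not detectable. Both genes lie on chromosome 14, Nefl at 68083863 to 68089095 on the plus strand and Nefm at 68082590 to 68124846 on the minus strand. In this annotation Nefl lies inside the span of Nefm, and whether their exons overlap was not examined. Without a stated strand setting, reads in any shared exon sequence cannot be assigned to either gene. The heavy chain gene Nefh and the peripherin gene Prph had 0 counts in all 12 libraries.

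**Figure D1:**
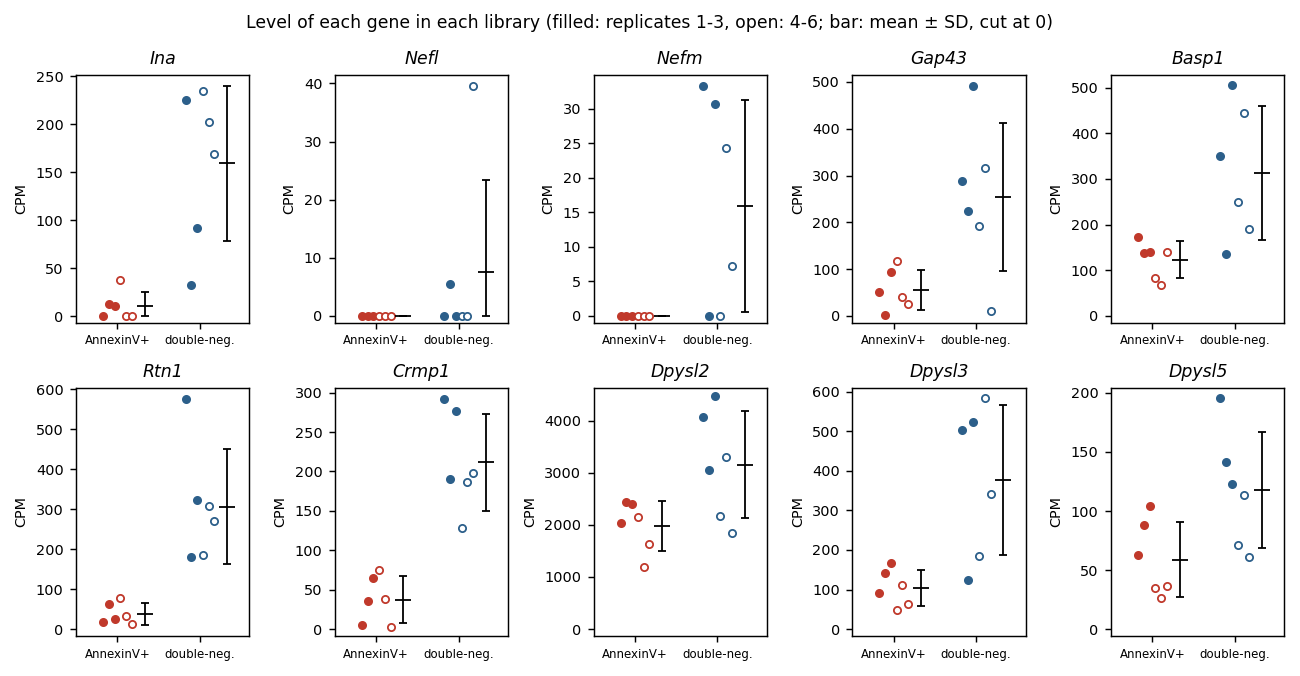
Level of each gene (CPM, y axis) in each library, AnnexinV-positive in red and double-negative in blue, with replicates 1 to 3 filled and 4 to 6 open and bars for the mean ± SD (n = 6 each, cut at 0). Rtn1 and Crmp1 show no overlap between the groups, and Gap43 has a single double-negative library, at 10.8 CPM, far below the other 5.

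Rtn1 fell with the smallest p of the 8. It lies on chromosome 12 at 72211752 to 72409054 (minus strand). Its level was 12.2, 29.4 and 78.8 CPM at the lowest, median and highest AnnexinV-positive library, against 180, 289 and 575 CPM in double-negative libraries. Every AnnexinV-positive library was below every double-negative library, which held for 1.24% of the tested genes in this direction. The means were 38.2 ± 26.5 CPM among AnnexinV-positive libraries, against 306 ± 145 CPM among double-negative ones (SD, n = 6 each), and the log2 fold change was −2.96 (SE 0.45, 95% interval −3.90 to −2.03, adjusted p = 0.000396 in edgeR). Over all its alternatives the adjusted p ran from 2.38e-08 to 0.117. Rtn1 was over the filter's cut in 2 AnnexinV-positive libraries, against 6 double-negative ones. The relatives Rtn3 and Rtn4 were tested and did not pass: Rtn3 had −0.36 (SE 0.33, adjusted p = 0.647 in edgeR) and Rtn2 was below the filter with 17 counts over the AnnexinV-positive libraries and 29 over the double-negative ones.

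The growth cone membrane genes Gap43 and Basp1 were lower without passing the threshold. Gap43, on chromosome 16 at 42248442 to 42340651, had 2.58, 46.3 and 117 CPM at the lowest, median and highest AnnexinV-positive library and 10.8, 255 and 491 CPM in double-negative libraries. Its log2 fold change was −2.17 (SE 0.65, 95% interval −3.51 to −0.84, adjusted p = 0.0793 in edgeR). Double-negative library 6 held only 3 Gap43 counts, and 5 of 6 AnnexinV-positive libraries lay above it. Without that library Gap43 passed (log2 fold change −2.42, adjusted p = 0.0151 in edgeR), as it did with DESeq2 (0.0180) and with no filter (0.00547). Over all its alternatives the adjusted p ran from 0.00547 to 0.661. That library also held 11 of the 12 Nefl counts, so it was low in one of these genes and high in another.

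Basp1, on chromosome 15 at 25363277 to 25413764, had 67.5, 138 and 172 CPM at the lowest, median and highest AnnexinV-positive library, against 136, 299 and 507 CPM in double-negative libraries. All 6 AnnexinV-positive values were below the double-negative median, and 4 of them were above the lowest double-negative value (library 2). The log2 fold change was −1.33 (SE 0.36, 95% interval −2.08 to −0.58, adjusted p = 0.0588 in edgeR). It passed without double-negative library 2 (adjusted p = 0.0240 in edgeR), library 4 (0.0490) or library 6 (0.0394), with DESeq2 (0.0114), with size factors by median of ratios (0.0472) and with the replicate set as a term (0.0408). Over all its alternatives the adjusted p ran from 0.0114 to 0.449.

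Among the CRMP genes, Crmp1 and Dpysl3 fell, and Dpysl2 and Dpysl5 did not pass. Crmp1, on chromosome 5 at 37241940 to 37292133, had 3.05, 37.4 and 75.7 CPM at the lowest, median and highest AnnexinV-positive library, against 128, 194 and 292 CPM in double-negative libraries. No libraries of the groups overlapped. Its means were 37.3 ± 29.6 CPM among AnnexinV-positive libraries, against 212 ± 61.5 CPM among double-negative ones (SD, n = 6 each), with a log2 fold change of −2.46 (SE 0.54, 95% interval −3.57 to −1.35, adjusted p = 0.0117 in edgeR). The 3' part of Crmp1 overlaps Evc on the other strand, a gene with 13 counts over the AnnexinV-positive libraries and 0 over the double-negative ones.

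Dpysl3, which encodes CRMP4, had 47.3, 101 and 168 CPM at the lowest, median and highest AnnexinV-positive library, against 125, 423 and 583 CPM in double-negative libraries. It lies on chromosome 18 at 43320984 to 43438286. In all, 4 of 6 AnnexinV-positive libraries were below the lowest double-negative library (library 2), and 2 were above it. The log2 fold change was −1.84 (SE 0.40, 95% interval −2.65 to −1.02, adjusted p = 0.0109 in edgeR).

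Dpysl2, which encodes CRMP2, the family member best known for binding tubulin dimers, was the most abundant of the 10 genes. It lies on chromosome 14 at 66802864 to 66868688. AnnexinV-positive libraries had 1201, 2095 and 2434 CPM at the lowest, median and highest, against 1852, 3179 and 4469 CPM in double-negative libraries. The ranges overlapped, with 4 of 6 AnnexinV-positive libraries above the lowest double-negative library. Its log2 fold change was −0.67 (SE 0.24, 95% interval −1.16 to −0.18, adjusted p = 0.150 in edgeR). It was −0.26 when double-negative libraries 1 to 3 were left out.

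Dpysl5, which encodes CRMP5, had 26.5, 49.9 and 104 CPM at the lowest, median and highest AnnexinV-positive library, against 61.1, 118 and 196 CPM in double-negative libraries. It lies on chromosome 5 at 30711564 to 30799375. In both groups the libraries numbered 1 to 3 were the higher ones: their means were 85.0 CPM for AnnexinV-positive and 153 CPM for double-negative cells, and those of libraries 4 to 6 were 32.6 CPM for AnnexinV-positive and 81.8 CPM for double-negative cells. The groups overlapped, with 3 of 6 AnnexinV-positive libraries above the lowest double-negative one. The log2 fold change was −1.0 (SE 0.51, 95% interval −2.06 to 0.06, adjusted p = 0.350 in edgeR), and −0.43 without double-negative libraries 1 to 3. The remaining CRMP gene, Dpysl4, was below the filter, with 47 counts over the AnnexinV-positive libraries and 59 over the double-negative ones.

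**Figure D2:**
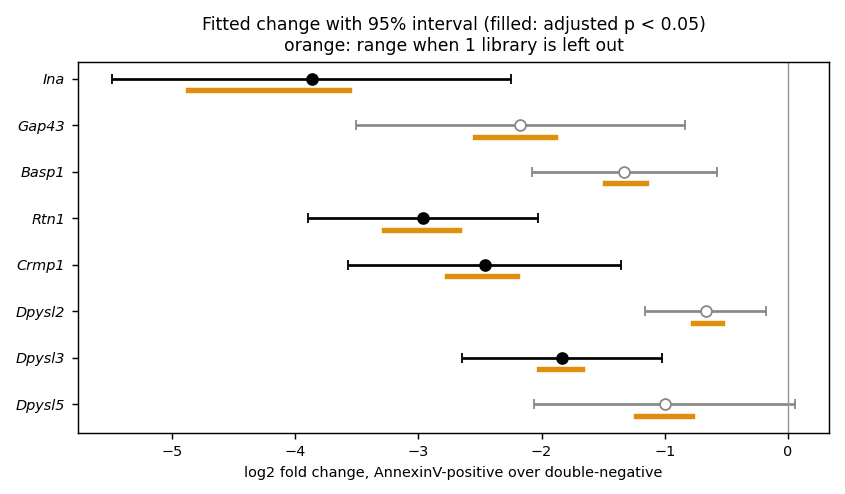
Fitted log2 fold change, AnnexinV-positive over double-negative (x axis), of the 8 tested genes, with 95% intervals, filled points for an adjusted p under 0.05 in edgeR, and an orange bar for the range of the value when 1 library is left out. Ina lies farthest from 0 at −3.87 and Dpysl2 nearest at −0.67, and the orange bars stay below 0 for the 8 genes.

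The fold changes of related genes were set against each other through their log2 ratio in each library. Of 9 pairs within the membrane and CRMP groups, all pairs of tested genes in each group, 1 passed an exact two-sided permutation test over libraries adjusted over the 9. This was Crmp1 to Dpysl2, whose log2 ratio was −5.77 ± 1.18 among AnnexinV-positive and −3.83 ± 0.34 among double-negative libraries (SD, n = 6 each). The difference was −1.94 (exact p = 0.00216, the smallest that 6 against 6 can give; adjusted p = 0.0195 by permutation). All AnnexinV-positive ratios were below all double-negative ones, so Crmp1 was lower relative to Dpysl2 as well as in itself. Without double-negative libraries 1 to 3 the difference was −2.01 (exact permutation, adjusted p = 0.143), and over the alternatives the adjusted p ran from 0.0195 to 0.143. With fewer double-negative libraries the smallest possible exact p is larger. After adjustment over the 9 pairs, a single pair at that smallest p could not pass in that setting. Its adjusted p therefore cannot decide whether the difference holds there. The ratio of Dpysl3 to Dpysl2 differed by −1.05 (exact p = 0.0346, adjusted 0.0779 by permutation) and that of Dpysl5 to Dpysl2 by −0.31 (exact p = 0.160, adjusted 0.206 by permutation). Rtn1 to Basp1 differed by −1.63 (exact p = 0.0173, adjusted 0.0714 by permutation). Gap43 to Basp1 differed by −0.73 (exact p = 0.394, adjusted 0.394 by permutation), with ranges of −3.75 to 0.47 in AnnexinV-positive and −3.39 to 0.68 in double-negative libraries.

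**Figure D3:**
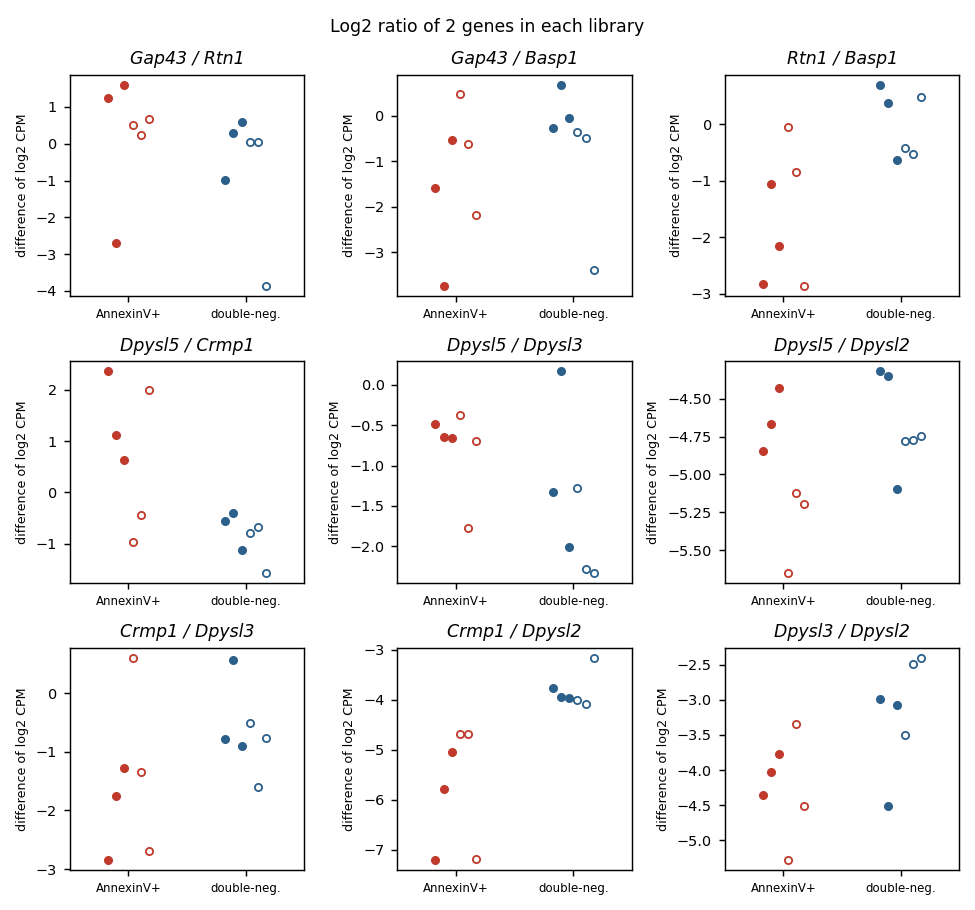
Difference of log2 CPM between the genes of each pair (y axis) in each library, AnnexinV-positive in red and double-negative in blue, with replicates 1 to 3 filled and 4 to 6 open. In the Crmp1 to Dpysl2 panel the AnnexinV-positive ratios run from −7.20 to −4.68 and the double-negative ratios from −4.09 to −3.17, and the other 8 panels show overlap.

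Levels were set side by side per kb of the union of exons in GENCODE M21. The order depends on the length used, and another measure is given beside it. Dpysl2 led in both groups, at 438 ± 106 CPM per kb in AnnexinV-positive and 697 ± 227 CPM per kb in double-negative libraries (SD, n = 6 each). In double-negative libraries Gap43 (166 ± 104 CPM per kb) and Basp1 (156 ± 72.8) came next and differed by less than their spread. Rtn1 (61.5 ± 29.1), Dpysl3 (57.0 ± 28.8), Ina (49.1 ± 24.9) and Crmp1 (30.0 ± 8.73) followed, and within these 4 each neighbour differed by less than the larger SD. Dpysl5 (15.9 ± 6.67), Nefm (2.75 ± 2.65) and Nefl (2.22 ± 4.69) were lowest. The authors' deposited table named TPM, whose scores are on another scale, kept Dpysl2 first and placed Rtn1 second in double-negative libraries, at a mean score of 307, against 182 for Gap43, 164 for Basp1 and 83.7 for Crmp1.

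In AnnexinV-positive libraries the order behind Dpysl2 was Basp1 (61.3 ± 19.9 CPM per kb), Gap43 (36.1 ± 28.1), Dpysl3 (15.8 ± 6.97), Dpysl5 (7.97 ± 4.29), Rtn1 (7.67 ± 5.33), Crmp1 (5.29 ± 4.20) and Ina (3.16 ± 4.54), with SD over 6 libraries. Neighbours from Dpysl5 down to Ina differed by less than the larger SD. By score Rtn1 (48.0) was level with Gap43 (48.3) in these libraries and above Dpysl5 (15.6), so its place differs between the measures. By union exon length, Dpysl2 made up 93.0 ± 2.91% of the summed CRMP level per kb among AnnexinV-positive and 85.9 ± 4.25% among double-negative libraries (SD, n = 6 each), the 5 CRMP genes included. Those shares ran from 88.3% to 95.7% in AnnexinV-positive and from 80.6% to 91.2% in double-negative libraries, so they overlapped, and this difference was not tested.

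**Figure D4:**
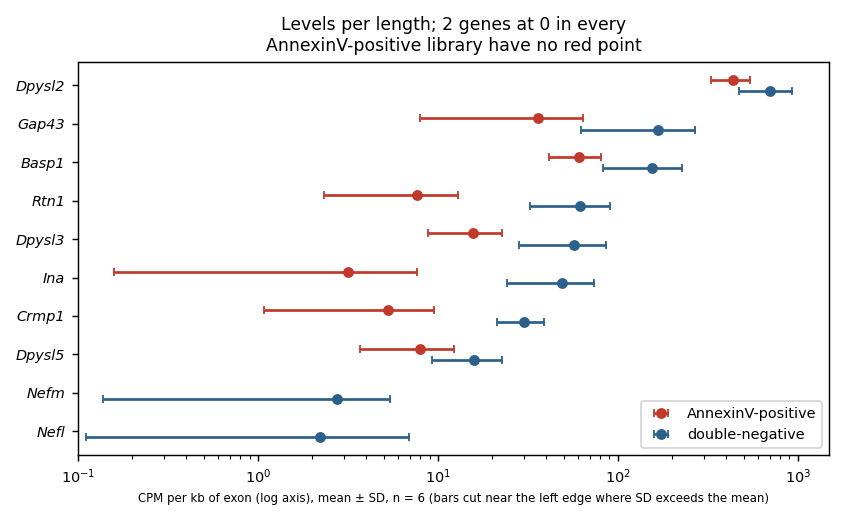
Mean CPM per kb of exon (log x axis) with SD over 6 libraries for each gene, AnnexinV-positive in red and double-negative in blue. Dpysl2 is highest in both groups at 438 and 697 CPM per kb, and Nefm and Nefl have no red point because they were at 0 in every AnnexinV-positive library.

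Replicates 1 to 3 and 4 to 6 were also fitted apart, because haemoglobin genes were abundant in double-negative libraries 1 to 3, as given above. The log2 fold changes in replicates 1 to 3 were −3.22 for Rtn1, −2.71 for Gap43, −2.69 for Crmp1, −1.42 for Dpysl3, −1.06 for Basp1, −0.80 for Dpysl5 and −0.69 for Dpysl2. Ina was below the filter there, at a mean of 7.89 CPM among AnnexinV-positive libraries, against 117 CPM among double-negative ones. In replicates 4 to 6 the values were −4.01 for Ina, −2.61 for Rtn1, −2.31 for Dpysl3, −2.12 for Crmp1, −1.62 for Basp1, −1.47 for Gap43, −1.32 for Dpysl5 and −0.57 for Dpysl2. Every value was negative in both sets, but with 3 against 3 libraries only Rtn1 in replicates 1 to 3 passed (adjusted p = 0.0153 in edgeR). The difference between the sets did not pass for any of the 8 genes (smallest adjusted p = 0.967 in edgeR), where 0.0789% of tested genes were called. At an unadjusted p under 0.05 it was 0 of 8 genes, against 239 of the 3800. Its 95% intervals were wide, for example −1.29 to 3.89 for Gap43 and −3.77 to 3.15 for Ina. Without these 3 double-negative libraries, Ina (−4.15), Rtn1 (−2.64) and Dpysl3 (−1.77) still passed, and Crmp1 did not (−2.12, adjusted p = 0.195 in edgeR). With double-negative libraries 3 and 5 left out, which had the fewest detected genes, Ina and Rtn1 passed, and Crmp1 (−2.39, adjusted p = 0.0735 in edgeR) and Dpysl3 (−1.47, adjusted p = 0.130 in edgeR) did not. Over all alternatives the adjusted p ran from 0.000227 to 0.397 for Crmp1 and from 0.000662 to 0.416 for Dpysl3.

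Other genes of the same machinery were counted from lists. Among 10 other intermediate filament genes 3 were tested, 0 passed, and their signs were positive: vimentin (Vim) had 1.11 (SE 0.34, adjusted p = 0.0926 in edgeR) and nestin (Nes) 1.69 (SE 0.62, adjusted p = 0.169 in edgeR). Both are filaments of neural progenitors, and for each of them 6 of 6 AnnexinV-positive values exceeded the median of the double-negative ones. Of 10 close relatives of the genes, 4 were tested and 0 passed. Marcks, a membrane protein related in function to GAP43 and BASP1, had 0.09 (SE 0.21, 95% interval −0.34 to 0.53, adjusted p = 0.864 in edgeR), and Marcksl1 had −0.17 (SE 0.32, 95% interval −0.83 to 0.49).

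Of 24 further genes listed for growth cone actin and membrane, 19 were tested, 1 fell and 0 rose, with a median log2 fold change of −0.66. Among all tested genes 1.47% fell. The list includes Elavl4, which also stands in the young neuron list below. The member that fell was the cell adhesion gene Ncam1, at 185 ± 70.0 CPM among AnnexinV-positive libraries, against 516 ± 220 CPM among double-negative ones (SD, n = 6 each; log2 fold change −1.47, SE 0.34, adjusted p = 0.0176 in edgeR). Nrcam, another adhesion gene of axons, had −2.96 (SE 0.83, adjusted p = 0.0648 in edgeR). The actin-binding profilin gene Pfn1 reached 0.80 (SE 0.23, adjusted p = 0.0686 in edgeR). Of 19 kinase, phosphatase and calmodulin genes that act on CRMPs or GAP43, 11 were tested and 0 passed (median −0.20). Calm2, a calmodulin gene, had −0.47 (SE 0.22, adjusted p = 0.294 in edgeR). Cdk5r1, the activator of the CRMP kinase CDK5, was below the filter with 26 counts over the AnnexinV-positive libraries and 129 over the double-negative ones. Of 13 semaphorin receptor and signalling genes 4 were tested and 0 passed (median −0.44). Plxna3, a semaphorin receptor, had −1.27 (SE 0.75, adjusted p = 0.435 in edgeR).

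Of the marker lists, those of young neurons and progenitors had members that passed the test. Each of the other lists, given below, had only 0 or 1 tested members, and 0 passed. The summed level of 11 other young neuron genes was 327 to 1096 CPM among AnnexinV-positive libraries and 1576 to 4557 CPM among double-negative ones. These ranges did not overlap. Of the 10 tested among them, 7 fell: Dcx, Stmn2, Myt1l, Map2, Elavl3, Bcl11b and Tbr1. Among all 3800 tested genes 1.47% were called lower at an adjusted p of 0.05 in edgeR. The log2 fold changes of the 7 lay between −5.35 for Myt1l and −1.69 for Map2. This list was chosen with earlier results of these data known, so the count describes these genes only. The sum of the followed genes other than Dpysl2 was 281 to 605 CPM among AnnexinV-positive libraries, against 1034 to 2462 CPM among double-negative ones. Set against the neuron sum in the same library, those 9 genes stood at 36.6% to 86.0% (median 65.7%) in AnnexinV-positive and 36.5% to 78.8% (median 54.1%) in double-negative libraries, and these ranges overlapped. Dpysl2 stood at 186% to 500.0% of the neuron sum in AnnexinV-positive and 72.6% to 137% in double-negative libraries, without overlap. The part of the neuron markers in the results above was not tested.

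The 12 progenitor markers summed to 2308 to 3048 CPM among AnnexinV-positive libraries, against 983 to 2283 CPM among double-negative ones. Of 10 tested members 1 rose, the chromatin gene Hmga2 (log2 fold change 2.14, adjusted p = 0.0123 in edgeR), where 15 of all 3800 tested genes rose. The sign was positive for 7 of the 10 markers and negative for 3. Means in AnnexinV-positive and double-negative libraries were 605 and 132 CPM for Hmga2, 550 and 250 for Vim, and 158 and 44.5 for Nes. These are the tested markers of the list with the smallest p, so they do not stand for all of it. Emx1 and Hes1 were below the filter. Emx1 had 37 counts over the AnnexinV-positive libraries and 56 over the double-negative ones, and Hes1 had 25 and 10. Cajal-Retzius markers, of early-born cortical neurons, summed to 10.3 to 233 CPM among AnnexinV-positive libraries, against 92.1 to 751 CPM among double-negative ones, with overlap. Ventral forebrain markers summed to 0 to 235 CPM among AnnexinV-positive libraries, against 202 to 1474 CPM among double-negative ones. Markers of cranial sensory neurons, which are rich in neurofilaments, summed to 0 to 22.1 CPM among AnnexinV-positive libraries, against 0 to 248 CPM among double-negative ones, with Prph and Scn9a at 0 in both groups. Vessel markers ran from 0 to 363 CPM in AnnexinV-positive libraries, and 6 of 6 were at 0 in double-negative libraries. Mesenchyme and meninges markers ran from 0 to 864 CPM among AnnexinV-positive libraries, against 0 to 5.44 CPM among double-negative ones, where 7 of 8 were at 0. Macrophage markers ran from 0 to 425 CPM among AnnexinV-positive libraries, against 0 to 91.7 CPM among double-negative ones, and hem and choroid plexus markers from 0 to 165 CPM among AnnexinV-positive libraries, against 0 to 92.1 CPM among double-negative ones. Blood markers ran from 0 to 93.1 CPM among AnnexinV-positive libraries, against 0 to 8.09 CPM among double-negative libraries 4 to 6 and 153557 to 539891 CPM among double-negative libraries 1 to 3. The blood genes are outside the scaled library size, so these sums are not shares of all counts. The macrophage, hem, cranial sensory, mesenchyme and ventral forebrain sums overlapped between the sorts. Vessel sums were at 0 in AnnexinV-positive libraries 2 and 4 as well. The part of these cell types in the results was not tested.

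**Figure D5:**
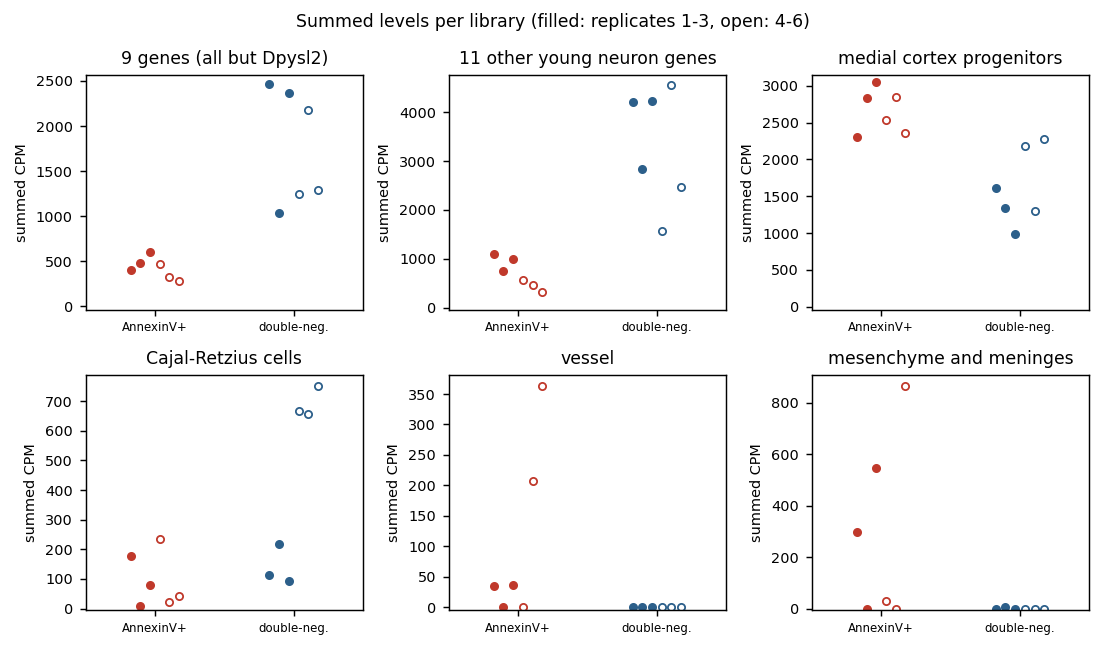
Summed CPM (y axis) of the 9 genes other than Dpysl2 and of 5 marker lists in each library, AnnexinV-positive in red and double-negative in blue, with replicates 1 to 3 filled and 4 to 6 open. The 9 genes and the other young neuron genes separate the groups in the same direction. Vessel markers are at 0 in every double-negative library and in AnnexinV-positive libraries 2 and 4.

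The genes whose pattern over the 12 libraries was nearest to each tested gene were found by the root mean square difference of centred log2 CPM. For Rtn1 these were Tubb4a (0.451), Crmp1 (0.568) and Gpm6a (0.631), where the median over all tested genes was 1.86. For Ina they were Tubb4a (0.664), Rtn1 (0.727) and Dner (0.835), and for Crmp1 they were Rtn1 (0.568), Negr1 (0.597) and Epha3 (0.600). Rtn1 and Crmp1 were thus among each other's nearest 3 patterns, and Rtn1 was among those of Ina. Dpysl2 lay nearest to Stmn1 (0.212), Jpt1 (0.238) and Calm2 (0.286), and Dpysl5 to Dpysl2 (0.371), Malat1 (0.386) and Gm37376 (0.408). Dpysl3 was nearest to 6330403K07Rik (0.503), Lbh (0.507) and Map2 (0.522). Basp1 was nearest to Smarcc2 (0.410), Nol4l (0.433) and Tuba1a (0.435), and Gap43 to Bdh1 (0.692), Relch (0.774) and Nrg1 (0.784). The median distance over all tested genes ran from 1.06 for Dpysl2 to 2.15 for Ina, so distances of different genes are not on one scale.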

How the data were processed

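The libraries are 12 sorted bulk samples, 6 per sort, from 15 samples of the series, of which 3 have no sort label and were left out. The deposited main table is called raw counts by the authors, but 8.84% of its nonzero values are fractional, so these are estimated counts. They were rounded to whole numbers; 0 values of the 10 genes were fractional. A second deposited table, named TPM by the authors, has columns that sum to between 764764 and 1835685, so it was treated as a score and entered alternative fits alone. STAR, Trimmomatic, Seurat 4 and featureCounts are the tools, and GRCm38 and mm10 the builds, named per the submitters' processing notes without a role. Annotation, strand setting and filters are not stated. Genes were tested with edgeR 4.0.16 (R 4.3.3): filterByExpr with minimum count 10 and total 15, TMM, robust quasi-likelihood test of the sort group, two-sided, Benjamini-Hochberg over 3800 genes, threshold 0.05. The standard error is the log2 fold change over the square root of F. The script was tested on simulated data. Log2 CPM uses a prior count of 2. No molecular identifiers are mentioned, so zero-count limits (3 counts) cover counting error only; 1 count was worth 2.41 to 15.4 CPM. Within-group pairs of libraries differed by more than sampling noise (chi-square per degree of freedom 4.96 to 42.2 over 30 pairs). Genes were placed with GENCODE M21 on GRCm38, which held 53365 of the 55367 symbols, and promoter windows are from RefSeq on GRCm38.p6. The gene set, the lists and the tests were chosen with earlier results of these data known. The text names the 10 genes, list members called or with the smallest p (up to 3 tested per list), and the 3 nearest patterns of each tested gene. Rtn2, Dpysl4, Nefh, Prph and Cdk5r1, below the filter, and the pair ratios were added after values were seen. Alternatives were other scalings, filters, tools (DESeq2 1.42.0, limma 3.58.1), the replicate block, replicate sets, and leaving out libraries.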

Additional observations from a re-analysis of the deposited data

Results flagged for a closer look

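Among 18 groups of 6 libraries examined for a single value far from the rest, 2 stood out. Chance flags about 1 in 20 such groups where values are normally distributed. That rate does not apply to groups with many zero counts, such as Nefl, where 4 of 6 double-negative libraries had 0 counts. Both were in double-negative library 6. Gap43 was lowest there at a log2 CPM of 4.25 (3 counts), against 7.64 in the next library. Nefl was highest there at a log2 CPM of 5.58 (11 counts), against 3.77 in the next library. The cause was not tested.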

How the results depend on the processing

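All 231 alternative fold changes of the 8 tested genes kept a negative sign. The number past the threshold, 4 of 8, ran from 4 to 6 when 1 library was left out. It was 2 with limma on the score table at a pseudocount of 1, 1 at a pseudocount of 0.1, 1 at a pseudocount of 1 without a filter, 1 in replicates 1 to 3 alone, 0 in replicates 4 to 6 alone and 2 without double-negative libraries 3 and 5. The count of lower genes, 56, ran from 39 to 77 when 1 library was left out. It was 32 with library totals alone, 136 with no filter, 122 with DESeq2, 22, 10 and 11 in those 3 fits of the score table, 10 in replicates 4 to 6 alone, 24 without double-negative libraries 1 to 3 and 11 without double-negative libraries 3 and 5. The smaller sets hold fewer libraries; the other causes were not tested. Leaving out 1 library moved the difference between replicate sets from −4.92 to 0.31 for Ina, −0.14 to 1.40 for Rtn1, −0.21 to 1.25 for Crmp1 and −0.055 to 0.43 for Dpysl2, so its sign is not fixed. The Gap43 to Basp1 difference was 0.040 without double-negative libraries 1 to 3. Equal replicate numbers did not pair the libraries (correlations −0.01 to 0.08, 2 of 6 nearest to their own number); with the replicate block 4 of the 8 genes passed and 52 genes were lower. At 2.41 to 15.4 CPM per count, depth limits low genes such as Nefl and Nefm.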
